A study of Mus musculus with 6 samples.

Results

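DN3 thymocytes without the long isoforms of Tcf1 were compared with control DN3 thymocytes, gene by gene across the genome. The comparison took every library titled p45 deficient (2) and every library titled control (2), which is 4 of the 6 libraries of the study, and the 12939 of 24015 gene symbols with enough counts to test. DN3 cells are immature T cells of the thymus that carry neither CD4 nor CD8 and were sorted by the absence of other lineage markers, low CD44 and high CD25. The p45-deficient mice had the genotype p45-/-, in which only the long Tcf1 proteins are missing, and the controls had the genotype wild type. The remaining 2 libraries came from Lck-cre+ Tcf1 fl/fl mice, in which a Cre recombinase driven by the T-lineage Lck promoter removes all Tcf1 proteins. Those libraries entered the fit, which shares its estimate of spread over all 6, and the last comparison below. The labels state no age, sex or strain, and leave unsaid whether the pair of libraries in a group stands for separate animals. The p-values therefore rest on spread between libraries that may be technical.

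Tcf1, encoded by Tcf7, is an HMG-box transcription factor that T cell precursors switch on under Notch signalling and need to develop. Its long isoforms carry an N-terminal domain that binds beta-catenin, the effector of Wnt signalling, and its short isoforms lack that domain but keep the DNA-binding HMG box and the contact with Groucho/TLE corepressors. At the DN3 stage cells rearrange the T cell receptor beta locus, and those that succeed divide repeatedly on their way to the double-positive stage. The design asks which transcripts differ between p45-/- and wild-type cells at that point. Loss of the long isoforms cannot be told apart from other differences between the mice, such as strain, which the labels do not state.

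The 4 libraries held 19640524 and 25704385 counts (control) and 28107031 and 21826476 counts (p45-deficient). A count of 3 in 1 library equalled 0.11 to 0.145 CPM (counts scaled to a common library size with TMM factors). Tcf7 stood at 2088 and 1810 CPM in control and at 2340 and 2414 CPM in p45-deficient cells (log2 fold change 0.29, SE 0.11, adjusted p = 0.115), and gene counts do not separate its isoforms, so it does not check the labels. Of 14 DN3 markers, 0 were called by edgeR's quasi-likelihood test in either direction, beside 16% of all genes tested, although 7 had an unadjusted p below 0.05 and DESeq2 called 5, all lower. With the correction for GC content and transcript length described below, edgeR called 3 of them lower and 0 higher. The summed level of the 14 was 12850 and 11210 CPM in control and 11710 and 10780 CPM in p45-deficient cells. In the fit on the 4 libraries alone 8 of them passed, with Rag1, Ptcra and the CD3 chain Cd3d among those higher and Dntt and Cd3e among those lower, so these markers were not shown to be unaltered.

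Cells without the long isoforms differed from control cells at low, middle and high transcript levels. Called genes, those with an adjusted p below 0.05, numbered 2073 of 12939, which is 16% of the genes tested. Of these, 1096 were higher in p45-deficient cells (8.47%) and 977 were lower (7.55%). The median called rise was 0.80 on the log2 scale, and the median called fall was −1.11. The 2 libraries of one group lay wholly above those of the other in 69.3% of the genes tested, called or not. That held for all 1096 genes called higher and all 977 called lower. Falls reached further than rises: at least 2-fold changes numbered 382 higher and 547 lower, and at least 4-fold changes 159 higher and 240 lower. The order was the other way around among the rarest transcripts. Of 1460 tested genes with less than 1 CPM in control, 90 were higher and 24 lower, although a gene so low in control has little room to fall. Among 268 genes at 500 CPM or more in control, 25 were higher and 17 lower, and only 1 and 4 of these, respectively, changed at least 2-fold. Other scalings changed the balance of rises and falls, to 820 and 1175 with upper-quartile scaling and to 721 and 1281 with library totals, which shift the median over all genes from 0.05 to −0.06 on the log2 scale (by −0.106).

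**Figure D1:**
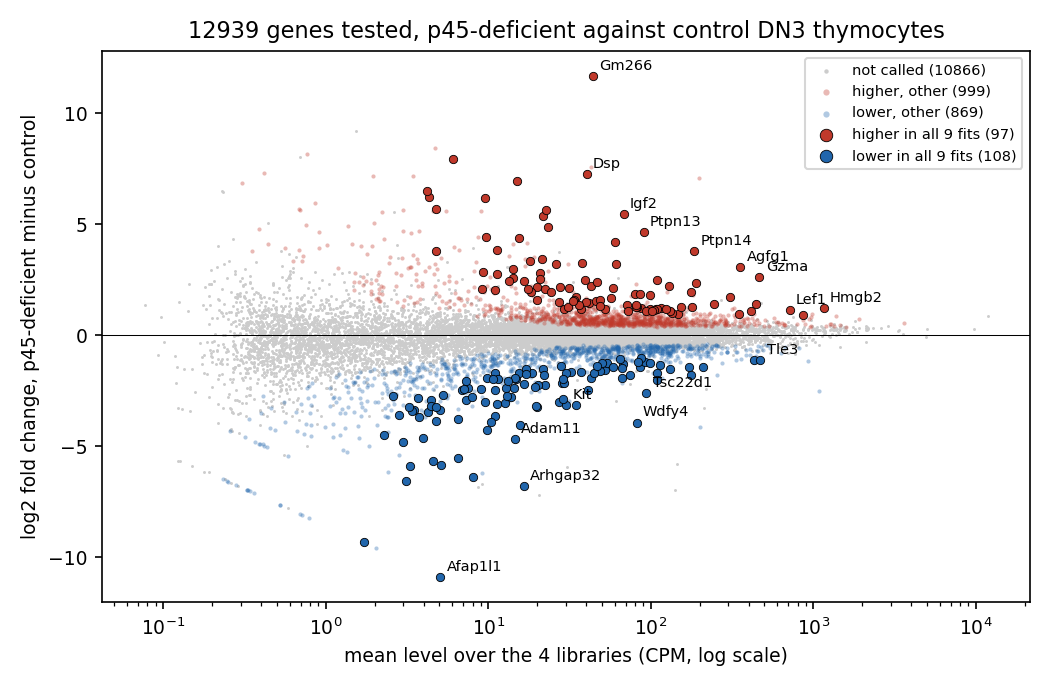
Log2 fold change of each of the 12939 tested genes (vertical axis) against its mean level over the 4 libraries in CPM (horizontal axis, log scale). Outlined points are the 97 genes higher and 108 genes lower in all 9 fits, faint coloured points the other called genes and grey points genes not called.

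The number of calls depended on single libraries, and 205 genes were called in each of 9 fits, which share libraries. With a filter of at least 5 CPM in at least 2 libraries, 202 of these genes were called. Leaving out control replicate 1, control replicate 2, p45-deficient replicate 1 or p45-deficient replicate 2 left 450, 535, 258 and 387 calls. An arm that holds 1 library takes its spread from the others in these fits. Leaving out Tcf1-deficient replicate 1 or 2 gave 3857 and 3923 calls, and the fit on the 4 libraries alone gave 3907 of 12613 genes (31%). Genes called with the same sign in the full fit, the 4-library fit, DESeq2 and each of the 6 fits without 1 library numbered 205, which is 1.58% of the genes tested, with 97 higher and 108 lower. Their fold changes began at 1.91 for the nucleosome-binding protein gene Hmgn2 among the rises and at 2.02 for the phospholipase gene Plcb2 among the falls, with medians of 3.91 and 5.20, unchanged to 3 digits when genes at 0 counts were set at their bound. Named genes among the 205 are marked below as core genes, and each other called gene lost its call in at least 1 of these 9 fits. The counts of the gene lists below shrank in the same way. Apart from the mitotic list, without any 1 of the control or p45-deficient libraries none of the lists described below had more than 4 members higher or 6 lower. A total of 132 of the 205 lay outside all 99 gene lists and symbol families used here.

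Direction of change was related to base composition. Among the quintile of genes with the lowest transcript GC content (31.0% to 43.9%), 371 were higher and 58 lower, and among the quintile with the highest (55.5% to 78.6%), 84 were higher and 410 lower. The median log2 fold change ran from 0.27 in the first of these quintiles to −0.28 in the second, and Spearman's correlation across 12834 genes, which are not independent, was −0.323 with GC and −0.114 with transcript length. Replicates of 1 genotype also differed along GC: the median log2 difference of control 2 minus control 1 ran from 0.15 to −0.13 over the same quintiles, and that of p45-deficient 2 minus p45-deficient 1 from −0.08 to 0.06. When a smooth trend on GC and length was removed from each library, 1481 genes were called (759 higher, 722 lower), 1251 of them shared with the 2073. All 205 core genes, chosen for passing 9 fits, were still called. Core falls were nonetheless skewed by GC, with 4 in the lowest quintile and 57 of 108 in the highest. Core rises numbered 14 and 17 in these quintiles. Median transcript GC was 56.0% for core falls and 49.4% for core rises, beside 49.8% for all genes tested. Counts of gene lists after the correction are given beside the main counts below.

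**Figure D2:**
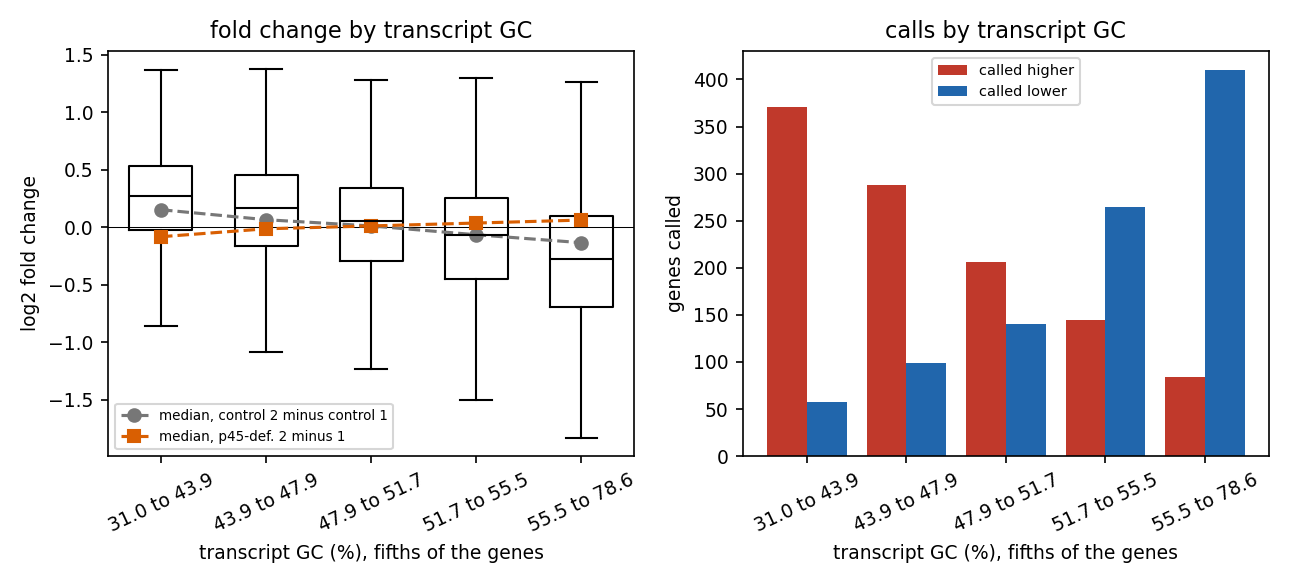
Left, log2 fold change of tested genes in quintiles of transcript GC (boxes, quartiles and median; whiskers to 1.5 times the box; outliers not drawn), with the median difference between the 2 controls (circles) and between the 2 p45-deficient libraries (squares). Right, genes called higher and lower in each quintile; higher calls fall from 371 to 84 and lower calls rise from 58 to 410 with GC.

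Among the 97 core rises were genes close to silent in control cells. Gm266, a predicted gene, had 0.048 and 0 CPM in control (1 count in all) and 113 and 64.1 CPM in p45-deficient cells, a ratio of 4300 with an exact 95% counting interval of 771 to 170000. Dsp, which encodes the desmosome protein desmoplakin, was at 0.773 and 0.305 CPM in control and at 68.0 and 92.3 CPM in p45-deficient cells, a 153-fold rise (log2 fold change 7.25, SE 0.38, adjusted p = 0.000593). Necab1, a calcium-binding protein gene known from neurons, rose from 0.725 and 1.03 CPM to 44.6 and 44.9 CPM (50.1-fold). Both p45-deficient libraries lay far above both controls for these 3 genes, and above them for every gene called higher. Lack of overlap alone held for 69.3% of all genes tested. The fatty acid elongase gene Elovl3 (0.0967 and 0.0763 CPM to 11.6 and 4.98 CPM) and Atp8a2, a phospholipid flippase gene (1.21 and 0.84 CPM to 47.2 and 38.2 CPM), followed the same pattern.

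Other core rises were of genes that control cells already expressed. The FERM-domain tyrosine phosphatase genes Ptpn13 and Ptpn14 rose together: Ptpn13 moved from 6.48 and 7.33 CPM to 203 and 145 CPM, and Ptpn14 from 31.5 and 18.9 CPM to 339 and 352 CPM (13.8-fold). Of 31 tested protein tyrosine phosphatases 3 were higher, these among them, and 2 lower (5 and 1 with the GC and length correction). The share called was 16.1%, beside 16% of all genes tested. Agfg1, an ArfGAP-domain gene, measured 71.4 and 80.5 CPM in control and 692 and 580 CPM in p45-deficient cells (8.37-fold, adjusted p = 0.000728), the largest fold among core genes above 500 CPM in p45-deficient cells. Gzma, a granule protease gene of cytotoxic lymphocytes, stood at 122.98 and 136 CPM in control and at 806 and 799 CPM in p45-deficient cells. Cell-surface genes were among them as well. Itga9 and Itga6, integrin alpha chains, rose 9.17-fold and 2.29-fold, Nrp1, a semaphorin and VEGF co-receptor, rose from 78.0 and 67.2 CPM to 278 and 284 CPM, and Cd160, a receptor of cytotoxic and intestinal lymphocytes, rose 8.03-fold. H2-Q1 (11.01-fold) and H2-Q2 (9.43-fold), nonclassical MHC class I genes, also belonged to the core, but near-identical copies in this family may share reads, so the split between them is uncertain. The most abundant core rise was Hmgb2, an HMG-box chromatin protein of dividing cells and a relative of Tcf1 by its DNA-binding fold, at 683 and 717 CPM in control and 1629 and 1614 CPM in p45-deficient cells (2.31-fold).

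**Figure D3:**
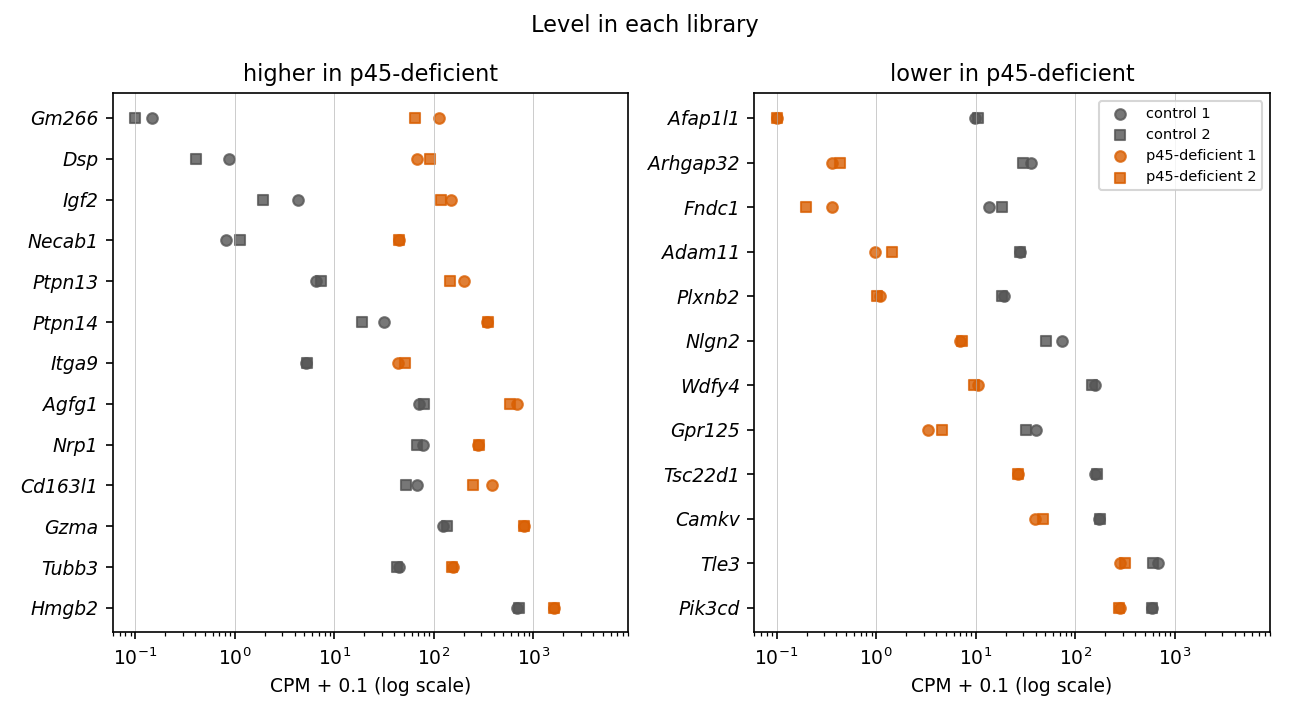
Level of 25 core genes in each of the 4 libraries (CPM plus 0.1, log scale), with 13 genes higher in p45-deficient cells on the left and 12 lower on the right. Circles are replicate 1 and squares replicate 2. Control (grey) and p45-deficient (orange) points do not overlap for any of these genes, which were picked after their values were seen. The same holds for every called gene and for 69.3% of all genes tested.

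Several core falls left transcripts close to 0. Afap1l1, an actin filament-associated protein gene, stood at 9.81 and 10.5 CPM in control and had 0 counts in both p45-deficient libraries, so it was at least 163-fold lower, taking 3 counts in the group as the limit. Arhgap32, a GTPase-activating protein gene, fell 110-fold, from 35.5 and 30.0 CPM to 0.257 and 0.335 CPM. Dusp15, a dual-specificity phosphatase gene, had 4.40 and 2.44 CPM in control and 0 counts in p45-deficient cells, at least 53.0-fold lower. These p45-deficient values lie at the level of a few counts. Across all called genes, 17 had 0 counts in both p45-deficient libraries and 3 had 0 counts in both controls. Zcchc3, which encodes a nucleic acid-binding protein, fell 46.6-fold. Ltbr, the lymphotoxin beta receptor, moved from 9.52 and 8.51 CPM to 0.0368 and 0.335 CPM, and Alpl, tissue-nonspecific alkaline phosphatase, from 8.65 and 6.60 CPM to 0.441 and 0.144 CPM.

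Several of the falls were of well-expressed genes. Kit, the stem cell factor receptor that T cell precursors lose as they commit, went from 53.4 and 54.8 CPM to 5.55 and 6.65 CPM. Wdfy4, a gene of antigen cross-presentation in dendritic cells, fell 15.2-fold, from 160 and 148 CPM to 10.5 and 9.57 CPM (log2 fold change −3.93, SE 0.20, adjusted p = 0.000593). Tsc22d1, a leucine-zipper regulator gene, went from 157 and 166 CPM to 26.4 CPM in both p45-deficient libraries. Each of these was low in both p45-deficient libraries and high in both controls. The groups did not overlap for any gene called lower, nor for 69.3% of all genes tested. The synaptic adhesion gene Nlgn2 fell 8.88-fold, the adhesion receptor gene Gpr125 9.41-fold and Plcg2, a phospholipase of B cell and innate receptor signalling, 9.06-fold. Tle3, a Groucho/TLE corepressor gene of the kind that binds TCF proteins, was the most abundant core gene that fell, from 684 and 608 CPM to 281 and 316 CPM (2.16-fold). The summed level of 11 dendritic cell markers was 286 and 188 CPM in control and 153 and 129 CPM in p45-deficient cells, with 0 of 9 tested members called by edgeR (2 at an unadjusted p below 0.05, 2 by DESeq2). That of 9 B cell markers was 38.9 and 30.4 CPM against 17.4 and 14.6 CPM, with 1 of 5 called lower (Cd79a, also after the correction), and that of 9 myeloid markers 13.4 and 11.2 CPM against 6.47 and 8.23 CPM, with 0 of 3 called by edgeR (1 at an unadjusted p below 0.05, 1 by DESeq2) and a median log2 fold change of 0.12 over those 3. The median log2 fold change was −1.39 over the 9 tested dendritic markers and −1.67 over the 5 tested B cell markers, with 0 members above 0 in either list. The 4-library fit called 4 dendritic and 2 B cell markers lower and 0 higher. Of the list members, Pax5 (B cell), Siglech and Batf3 (dendritic) and Elane (myeloid) were at 0.435 CPM or less in all 4 libraries. The part of such cells in the falls was not tested. In bulk libraries, fewer cells of a type and less RNA per cell cannot be told apart.

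Genes of mitosis rose together. Of 49 tested members of a list of mitotic, spindle and kinetochore genes, 40 were higher and 0 lower, beside 8.47% higher among all genes, and the median log2 fold change of its members was 0.98 against 0.05 for all genes tested. With the GC and length correction 39 were higher and the median was 0.85. Without any 1 of the control or p45-deficient libraries the count fell to between 6 and 13, with list medians of 0.85 to 1.01, and it was 46 in the 4-library fit. Members that were core genes encode parts of the kinetochore (Ndc80, Spc25, Cenpa), the chromosomal passenger complex (Birc5), the cytokinetic ring (Anln) and the mitotic kinase itself (Cdk1). Ndc80 went from 26.2 and 21.9 CPM to 67.9 and 77.8 CPM (3.03-fold, adjusted p = 0.00323), and Cdk1 from 67.4 and 65.4 CPM to 147 and 153 CPM (2.26-fold). Both p45-deficient libraries were above both controls for these genes, as for every gene called higher. The groups did not overlap in 69.3% of all genes tested. Mki67, which encodes the proliferation antigen Ki-67, did not pass (804 and 666 CPM against 1166 and 1237 CPM, adjusted p = 0.0565), and neither did Cdc20, Aurkb or 6 others.

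Mitotic genes are known to share promoter elements, and the promoters of the 5 called members with the smallest p that hold both within 120 bases of the start are shown. One is the cell cycle homology region (CHR, letters TTTGAA, or TTCAAA on the other strand), bound by the MuvB complex, and the other is CCAAT (or ATTGG), bound by NF-Y. Each line gives the 120 bases before the transcription start on the gene's strand from RefSeq (GRCm38.p6), with these letters in capitals.
Cdk1: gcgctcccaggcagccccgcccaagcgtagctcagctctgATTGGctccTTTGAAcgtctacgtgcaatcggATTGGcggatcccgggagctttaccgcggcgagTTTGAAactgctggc
Top2a: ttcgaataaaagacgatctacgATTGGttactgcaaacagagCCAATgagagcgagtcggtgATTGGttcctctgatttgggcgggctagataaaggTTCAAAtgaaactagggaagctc
Kif11: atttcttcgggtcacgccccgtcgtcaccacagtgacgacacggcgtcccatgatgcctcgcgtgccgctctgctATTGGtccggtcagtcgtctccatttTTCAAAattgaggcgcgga
Kif22: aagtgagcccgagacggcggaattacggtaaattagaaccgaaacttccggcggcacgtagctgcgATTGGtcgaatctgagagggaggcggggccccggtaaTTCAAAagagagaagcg
Ect2: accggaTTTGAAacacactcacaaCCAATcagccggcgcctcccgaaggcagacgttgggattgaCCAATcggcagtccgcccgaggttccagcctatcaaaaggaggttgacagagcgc

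These stretches lie at chr10:69352913-69353032, chr11:99024190-99024309, chr19:37376262-37376381, chr7:127042421-127042540 and chr3:27153879-27153998 in the same order, on the minus strand except Kif11. Over windows from 250 bases before to 50 after the start, on either strand, 31 of 41 list members with a promoter in the table held CHR (75.6%) and 33 held CCAAT (80.5%), beside 18.2% and 38.0% of 27018 promoters, 1 a gene, and 12.1% and 39.3% of those of tested genes (79.5% of which had a promoter in the table). The letters of CHR overlap the TCF/LEF word CTTTGAA. That word, its variant with a final T (CTTTGAT) or the further variant spelled CTTTGTT was in 14.6% of the mitotic list, 13.9% of all promoters and 9.63% of those of tested genes. Top2a, the topoisomerase that untangles replicated chromosomes, moved from 679 and 643 CPM to 1321 and 1287 CPM, and the spindle kinesin gene Kif11 from 177 and 171 CPM to 325 and 321 CPM. Kif22, a chromosome-arm kinesin gene, rose 1.86-fold and Ect2, a gene of cytokinesis, 2.07-fold, and of these 5 genes Cdk1 alone was a core gene.

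Of 41 tested DNA replication genes 16 were higher and 0 lower (median 0.51; 11 and 0.45 with the GC and length correction), and 2 or 3 were called higher without any 1 of the control or p45-deficient libraries. The share of replication genes called was 39.0%, beside 16% of all genes tested. Gmnn, the licensing inhibitor geminin, was the core member, from 53.1 and 51.5 CPM to 121 and 122.6 CPM (2.33-fold). Subunits of the CMG helicase's GINS complex (Gins1, Gins2, Gins3), replication protein A (Rpa1, Rpa2, Rpa3) and the origin recognition subunit gene Orc6 were among the others. None of the 6 genes Mcm2 to Mcm7, the helicase ring itself, passed the test, with adjusted p-values from 0.0749 (Mcm5) to 0.499 (Mcm2). Mcm2 stood at 553 and 505 CPM in control and 563 and 617 CPM in p45-deficient cells. The E2F words TTTCCCGC, TTTGGCGC and TTTGGCGG mark promoters of genes induced in S phase. They were in 14 of 33 list promoters (42.4%), beside 2.16% of all promoters and 3.96% of those of tested genes. These 33 promoters belong to list members whether called or not. The share among called members alone is not given, so the words were not tied to the rises. Gins3, shown next, is a called member with such a word and does not stand for the others. The 120 bases before the start of Gins3 (17.2 and 18.1 CPM to 32.7 and 33.4 CPM) are shown as an example, with only its E2F word in capitals (chr8:95633439-95633558, plus strand, GRCm38.p6).
Gins3: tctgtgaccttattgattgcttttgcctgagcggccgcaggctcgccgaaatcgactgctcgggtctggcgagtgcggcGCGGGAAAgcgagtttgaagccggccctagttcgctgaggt

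Of 25 tested CDK inhibitors, D and E cyclins and related regulators of G1, 6 were higher and 2 lower (3 and 2 after the correction). The E-type cyclin genes Ccne1 and Ccne2, the atypical E2F repressor gene E2f7 (core, 8.41 and 8.32 CPM to 32.6 and 39.5 CPM) and the CDK inhibitor gene Cdkn2c (14.9 and 15.2 CPM to 37.6 and 33.5 CPM) were higher. Ccnd2 and its kinase partner Cdk6 were lower, with Cdk6 going from 392.5 and 376 CPM to 158 and 166 CPM (2.37-fold, adjusted p = 0.00851) and Ccnd2 from 390 and 518 CPM to 237 and 187 CPM. Nucleotide synthesis genes had 7 of 24 higher and 0 lower (6 higher after the correction), with the ribonucleotide reductase genes Rrm1 and Rrm2 among them. Among tubulin and microtubule genes 8 of 20 were higher and 3 lower (8 and 1 after the correction). Tubb3 (44.8 and 42.6 CPM to 155 and 151 CPM), Tubb2b and Tubb2a were core rises, and the near-identical Tubb2 copies may share reads. The heavy chain of cytoplasmic dynein, Dync1h1, was lower, at 904 and 692 CPM against 443 and 477 CPM.

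Of 25 tested cholesterol synthesis genes 10 were higher and 1 lower (44.0% called, beside 16% of all genes tested), with a median of 0.55. The higher ones included Fdft1 (squalene synthase, 40.1 and 31.5 CPM to 79.2 and 61.5 CPM) and Msmo1 (a sterol demethylation enzyme, 2.14-fold). With the GC and length correction the median was 0.51 but 4 members were called higher and 0 lower, with library totals 3 were higher and 1 lower, and without any 1 of the control or p45-deficient libraries 0 to 2 were higher.

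The counts for the mitochondrial respiratory chain, the proteasome and ribosomes were smaller after the correction for composition. Respiratory chain genes had 28 of 91 higher and 1 lower (median 0.42), against 9 higher and a median of 0.17 after the correction. Proteasome subunits had 18 of 46 higher and 0 lower (median 0.42), against 6 and 0.23. Mitochondrial ribosomal proteins had 13 of 77 higher (median 0.35), against 2 and 0.20, and cytosolic ribosomal proteins 5 of 82 (median 0.30), against 0 and 0.05. Without the correction, 31.9% of respiratory chain, 39.1% of proteasome and 16.9% of mitochondrial ribosomal genes were called, beside 16% of all genes tested. The share of cytosolic ribosomal genes called, 6.1%, was below that background. Atp5h, an ATP synthase subunit, is an example of the size of the rise, at 146 and 169 CPM in control and 295 and 277 CPM in p45-deficient cells. The respiratory gene that was lower, Cox6b2, encodes a cytochrome c oxidase subunit known from testis and went from 16.3 and 20.99 CPM to 4.85 and 4.07 CPM. Splicing factors, with a median transcript GC of 45.3% beside 49.8% for all genes, had 15 of 110 higher and 1 lower. That was 14.5% called, below the share of all genes tested. After the correction 1 was higher and 6 lower. Unfolded protein and amino acid stress genes had 6 of 21 higher and 0 lower (28.6% called), with a median of −0.03. After the correction 5 were higher and 1 lower, with a median of 0.02, and DESeq2 called 7 higher and 2 lower. The 6 encode endoplasmic reticulum chaperones and folding enzymes (Hsp90b1, Pdia6, Pdia4, Dnajc3, Canx) and the stress sensor kinase PERK (Eif2ak3). Hsp90b1 went from 409 and 432 CPM to 791 and 674 CPM, while the transcription factor genes Atf4, Xbp1 and Ddit3 were not called.

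**Figure D4:**
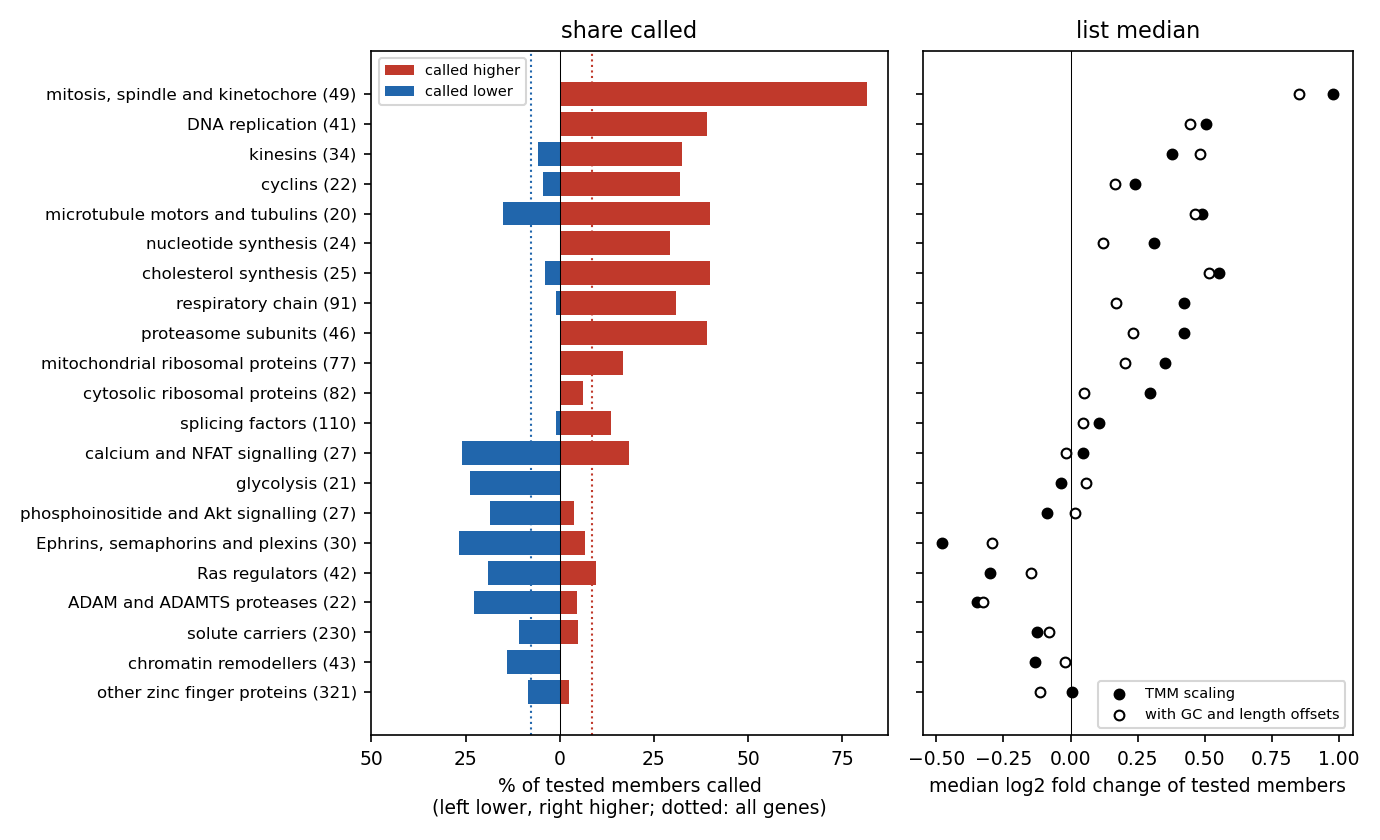
Left, share of the tested members of 21 lists or symbol families (tested members in brackets) called higher (to the right) or lower (to the left), with dotted lines at the shares among all genes (8.47% and 7.55%). Right, the median log2 fold change of each with TMM scaling (filled) and with the GC and length correction (open); the mitotic list stays near 0.9 while respiratory, proteasome and ribosomal lists move toward 0.

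Glycolysis genes had 0 of 21 higher and 5 lower and a median of −0.04 (5 lower and a median of 0.06 after the correction). The hexokinase Hk2 (45.5 and 35.9 CPM to 18.1 and 24.1 CPM) and the aldolase Aldoc (6.28 and 5.04 CPM to 1.18 and 2.01 CPM) were among them. No glycolytic gene was in the core, and 23.8% were called, beside 16% of all genes tested. Solute carriers had 11 of 230 higher and 25 lower (10 and 16 after the correction), or 15.7% called beside 16% of all genes tested. Among the fatty acid transport genes of the Slc27 family 2 were lower, Slc27a1 from 114 and 96.1 CPM to 26.3 and 29.5 CPM (core) and Slc27a2 from 5.08 and 5.95 CPM to 0.11 and 0.144 CPM, while Fabp5, an intracellular fatty acid-binding protein, was a core rise (48.6 and 42.9 CPM to 245 and 178 CPM).

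Calcium signalling genes changed at many steps and in both directions, with 5 of 27 higher and 7 lower (5 and 5 after the correction). Called members made up 44.4%, beside 16% of all genes tested. Ppp3ca, the catalytic subunit of calcineurin, moved from 16.6 CPM in both controls to 52.3 and 48.6 CPM, and Camk2d from 47.0 and 46.0 CPM to 101 and 97.6 CPM, both in the core. The genes that were lower encode the channels Itpr1, Itpr2, Orai2 and Orai3, the plasma membrane pump Atp2b4 (core, 73.5 and 83.2 CPM to 29.7 and 22.6 CPM) and the transcription factors Nfatc1 (168 and 165 CPM to 91.9 and 102 CPM) and Nfat5. Camk4 and the pump gene Atp2b1 were also called higher.

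Pik3cd, which encodes p110 delta, the lymphocyte catalytic subunit of phosphoinositide 3-kinase, went from 585 and 592 CPM to 280 and 273 CPM (core, 2.13-fold, adjusted p = 0.00406). Of 27 tested genes of the pathway 1 was higher and 5 lower, and these included Pik3ip1, an inhibitor of the kinase (181 and 242 CPM to 96.7 and 86.0 CPM), and Foxo3, a transcription factor that Akt restrains (91.3 and 107 CPM to 57.1 and 56.4 CPM). The list's median was −0.09, and 0.02 after the correction, with 3 lower. Its share called was 22.2%, beside 16% of all genes tested. TGF-beta and BMP genes had 0 of 25 higher and 4 lower (0 and 3 after the correction). That is 16% called, the same share as among all genes tested. Ltbp3, which anchors latent TGF-beta in the matrix, was a core fall (6.43 and 5.11 CPM to 0.294 and 0.0957 CPM). Of 42 regulators of Ras and G proteins 4 were higher and 8 lower, or 28.6% called (3 and 9 after the correction).

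Of 30 tested ephrins, Eph receptors, semaphorins, plexins and neuropilins, 2 were higher and 8 lower, and after the correction 5 were higher and 4 lower. The family's share called was 33.3%, beside 16% of all genes tested. Its median transcript GC was 57.2%, beside 49.8% for all genes. Plxnb2, a semaphorin receptor, moved from 19.2 and 18.2 CPM to 0.992 and 0.91 CPM, and Epha2 from 11.5 and 12.9 CPM to 0.515 and 1.29 CPM, both in the core. Nrp1 and Sema7a were the members that were higher. Integrins changed in both directions, with 4 of 21 higher and 3 lower (3 and 2 after the correction), Itga5 (42.3 and 47.1 CPM to 14.0 and 15.7 CPM) and Itgb4 among the latter. ADAM proteases had 1 of 22 higher and 5 lower (1 and 4 after the correction). Shares called were 33.3% of integrins and 27.3% of ADAM proteases. Adam19 was higher, from 3.58 and 2.21 CPM to 406 and 382 CPM, although its call was lost without 1 of the 6 libraries, and Adam11 was a core fall (28.1 and 28.0 CPM to 0.882 and 1.34 CPM).

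Chromatin remodellers had 0 of 43 higher and 6 lower (1 and 4 after the correction), of which Smarca4, the ATPase BRG1 of the SWI/SNF complex, was the most abundant, at 1427 and 1129 CPM in control and 567 and 598 CPM in p45-deficient cells. Histone demethylases and methyltransferases had 3 of 73 higher and 6 lower (2 and 4 after the correction), histone deacetylases and sirtuins 2 of 18 and 1 (1 and 1), and histone genes 3 of 47 and 2 (0 and 2). Shares called were 14.0% of remodellers and 12.3% of demethylases and methyltransferases, beside 16% of all genes tested. They were 16.7% of deacetylases and sirtuins and 10.6% of histone genes. Polycomb and Trithorax genes had 2 of 28 higher and 4 lower, or 21.4% called (0 and 3 after the correction). The PRC1 subunit Pcgf2 was in the core (6.67 and 5.99 CPM to 0.551 and 0.67 CPM). Zinc-finger genes outside the BTB and KLF classes had 8 of 321 higher and 27 lower (4 and 14 after the correction), beside 8.47% higher and 7.55% lower among all genes. Zfp36l2, an RNA-decay factor, moved from 1172 and 2520 CPM to 305 and 344 CPM, and Jun, an AP-1 subunit, from 138 and 618 CPM to 25.8 and 17.8 CPM. The controls differed from each other more than 2-fold for both genes, and neither was in the core. Lef1, the closest relative of Tcf7, was a core rise, and the TCF relative Tcf7l2 was lower.

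Some neighbouring genes were called in the same direction. Runs of at least 3 adjacent tested genes called in the same direction numbered 33, with 18 higher and 15 lower. With 8.47% of genes higher and 7.55% lower, some runs arise without any link between neighbours, and their expected number was not worked out. The longest held 5 genes of the Hoxa cluster, all lower: Hoxa7 (core) went from 9.62 and 10.6 CPM to 0.11 and 0.239 CPM, Hoxa5 from 4.06 and 4.05 CPM to 0 counts (at least 65.0-fold lower), and Hoxa6, Hoxa9 and the noncoding Mira were lower as well. Of 8 tested Hox genes 4 were lower and 0 higher, and 2 were lower after the correction. Without any 1 of the control or p45-deficient libraries 1 was lower. Hoxa9 had 37 counts over the controls and 1 over the p45-deficient libraries. A second run joined the imprinted genes H19 and Igf2 with the antisense Igf2os, all core rises. Igf2, which encodes a fetal growth factor, measured 4.25 and 1.83 CPM in control and 150 and 117 CPM in p45-deficient cells (44.6-fold, adjusted p = 0.00192), and H19, a noncoding RNA expressed from the other parental allele, from 250 and 236 CPM to 647 and 632 CPM. The sources used here do not give the strand setting of the counting, and Igf2 and Igf2os reads cannot be told apart. Mira may likewise share reads with the Hoxa genes beside it. Igf2bp3, whose protein binds Igf2 messenger RNA, was a core rise outside the locus (11.99 and 11.03 CPM to 49.2 and 52.6 CPM), and of the other 15 imprinted genes tested 0 were called by edgeR (2 had an unadjusted p below 0.05). Over all 17 the counts were 2 higher and 0 lower, or 11.8% called, beside 16% of all genes tested. They were 4 and 1 with the GC and length correction and 3 and 1 both in the 4-library fit and by DESeq2. The share of genes called ran from 13.0% to 19.9% over chromosomes 1 to 19 and X, and near Tcf7 it was 15.6% of 77 genes within 5 Mb and 12.3% of 310 within 20 Mb. Within 1 Mb of Tcf7, 3 of 20 genes were higher and 1 lower.

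Of the tested markers of the gamma-delta T cell lineage, an alternative fate at the DN3 stage, 3 of 6 were higher and 0 lower (3 and 0 after the correction, 1 to 3 higher without any 1 of the control or p45-deficient libraries, 5 by DESeq2). Their summed level was 200 and 163 CPM in control and 565 and 478 CPM in p45-deficient cells. Cd163l1, a scavenger receptor of gamma-delta cells, carried most of the sum, at 68.4 and 53.0 CPM against 383 and 249 CPM (core). Blk, a Src-family kinase gene, and Etv5, an ETS factor gene, were the others called, whereas Sox13 stood at 77.1 and 66.0 CPM in control and 60.6 and 66.2 CPM in p45-deficient cells (adjusted p = 0.386). Markers of double-positive thymocytes and of natural killer and innate lymphoid cells overlapped between groups in their sums (359 and 471 CPM against 413 and 395 CPM, and 141 and 186 CPM against 194 and 180 CPM). Thymic stroma markers summed to 161 and 166 CPM against 169 and 182 CPM. Of these 3 lists edgeR called 0 of 7, 0 of 11 and 0 of 5 members (1, 0 and 1 at an unadjusted p below 0.05, and 1, 0 and 0 by DESeq2). Of 3 tested erythroid markers 1 was called higher, the erythropoietin receptor gene Epor (a mean of 0.543 CPM in control and 2.97 CPM in p45-deficient cells, 5.47-fold, adjusted p = 0.0292), while the globin genes Hba-a1 and Hbb-b1 had 0 counts in all 4 libraries.

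In a direct test of p45-deficient against Tcf1-deficient cells, which called 10.4% of all genes, some core genes differed and some did not pass. Core genes were chosen on the same p45-deficient libraries, which favours a difference here. The genes below are examples, and the core genes that differed were not counted. Gzma stood at 215 and 306 CPM in Tcf1-deficient libraries, above both controls and below the p45-deficient libraries (log2 difference of p45-deficient minus Tcf1-deficient 1.62, adjusted p = 0.0049). Ptpn14 was at 36.0 and 25.7 CPM there (difference 3.48, adjusted p = 0.0031) and Kit at 38.6 and 54.4 CPM (difference −2.93, adjusted p = 0.00203), both called, and for each gene 1 of the 2 Tcf1-deficient libraries lay within the range of the controls. Rnf125, a ubiquitin ligase gene of the core, was at 21.5 and 19.98 CPM in Tcf1-deficient, 28.3 and 31.2 CPM in p45-deficient and 9.86 and 10.1 CPM in control cells, and its difference between the mutants did not pass (0.52, adjusted p = 0.0776).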

How the data were processed

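Sorted mouse DN3 thymocytes were profiled by RNA sequencing (total RNA, Qiagen columns, Illumina libraries, per the labels' protocols). The values deposited by the authors are raw whole-number counts of reads, 1 per gene symbol and library. The submitters' processing notes name TopHat2, featureCounts 1.5.0-p3, DESeq2 3.4 and the build mm9, without their order. Neither annotation nor strandedness is given in the sources used here, and overlapping, antisense and near-identical genes may share reads. Library totals were 19640524 to 28107031 counts over the 6 libraries, of which the ribosomal RNA gene Rn45s took 0.482% to 2.52%.

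The test was edgeR 4.0.16 (R 4.3.3) with filterByExpr, TMM scaling, 1 mean per group over all 6 libraries, robust quasi-likelihood dispersions (3 residual degrees of freedom), a two-sided F test and Benjamini-Hochberg adjustment over 12939 genes at 0.05. SEs were taken from the F statistic. Groups are the genotypes in the labels. The 4-library fit, DESeq2 1.42.0, other scalings and filters, a replicate block and the omission of each library were alternatives, and a loess correction (span 0.3) on GC and length of GENCODE M21 transcripts, matched by symbol for 12834 genes, was added after seeing the data. A zero in a group was set to 3 counts over the group. Floors and counting intervals (exact, 95%) cover counting error only. Gene lists (39) and symbol families (60) are described by counts and medians without a set test; members, lists and tests were chosen with earlier results of these data known. Named genes are Tcf7 and its relatives, the 20 largest rises and falls among called, non-overlapping genes whose higher group reached 5 CPM, the 10 of each that moved the most CPM, the 10 largest core rises and falls, and up to 5 members per list by p. The other genes named were chosen after their values were seen. Promoters are those of a RefSeq table (GRCm38.p6), matched by symbol. On simulated counts for this comparison (12726 genes) 4-fold changes were recovered in 85.9% of cases, 2-fold changes in 43.6% and 1.5-fold changes in 7.41%, and 6 calls were false. Those counts held 64, 55 and 81 changed genes at these folds, none among the rarest. They had the same spread in all groups and no GC trend. The shares and the false calls may therefore not hold for the real libraries. A few genes are not reported here.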

Additional observations from a re-analysis of the deposited data

How the results depend on the processing

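Calls numbered 2073 (1096 higher, 977 lower, 929 at least 2-fold). The fit on the 4 libraries alone gave 3907 calls, 1911 higher and 1996 lower. DESeq2 gave 1634 lower and library totals 721 higher. The GC and length correction with the 4 libraries gave 3120 calls, 1484 of them lower. Without 1 library, calls ranged from 258 to 3923, higher calls from 117 to 2226, lower calls from 141 to 1990 and at least 2-fold calls from 253 to 1228; the low ends came from omitting a control or p45-deficient library, the high ends from omitting a Tcf1-deficient one. The standard deviation of the log2 difference between the 2 libraries of a group was 0.51 in control and 0.49 in p45-deficient cells. It was 0.787 in Tcf1-deficient cells, whose libraries share in the estimate of spread. The cause of these shifts was not tested. Every other setting kept each of these 4 counts within 1.5 times. Among the genes tested in both, 2072 of the 2073 calls had the same sign with the GC and length correction. Depth limited genes near 0.11 to 0.145 CPM, the level of 3 counts.

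Replicate numbers did not pair the libraries: deviations of same-numbered libraries from their group means correlated at −0.014, −0.05 and −0.029. With the number as a replicate block the fit called 1613 genes (846 higher, 767 lower, 805 at least 2-fold).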
